A study of Mus musculus with 30 samples.

Results

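The caseins and the other milk protein genes were followed through tumours of 4T1 cells, a mouse mammary carcinoma line, and through the T cells isolated with them. The 10 genes were chosen by symbol, among 55401 gene rows of the deposited count tables: the caseins Csn1s1, Csn2, Csn1s2a, Csn1s2b and Csn3, the whey protein genes Wap and Lalba, the milk mucin-like gene Glycam1, the milk fat globule gene Btn1a1, and Elf5, a transcription factor of the secretory epithelium. All 10 were found, Csn1s2b had no count in any of the 30 libraries, and Wap had 6 counts in all. Mice labelled wild-type were given C269, which binds extracellular NAMPT (an enzyme that cells also release), at 2.5 mg/kg in 2 doses a week for 1 month, or control IgG1 (CTRL). Each treatment gave 5 libraries from 4T1-GFP cells sorted by their fluorescent label, 5 from CD4+ T cells (CD4) and 5 from CD8+ T cells (CD8) isolated with magnetic beads. The labels do not say whether the 5 libraries of a group came from separate mice, so p-values measure the spread between these libraries.

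Caseins form the micelles that carry calcium and phosphate in milk. The alpha and beta caseins bind calcium phosphate, and kappa-casein (Csn3) caps the surface of the micelle and keeps it in solution. In the mammary gland their genes are switched on in alveolar cells during pregnancy and lactation, when prolactin binds its receptor, the kinase JAK2 phosphorylates STAT5, and STAT5 enters the nucleus and binds milk gene promoters. ELF5 acts beside STAT5 in the alveolar lineage. Lalba encodes alpha-lactalbumin, a subunit of lactose synthase, Wap the whey acidic protein of rodent milk, and Btn1a1 butyrophilin of the milk fat globule membrane. Glycam1 is expressed in the lactating gland and also in high endothelial venules of lymph nodes.

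The 5 caseins lie in one block of chromosome 5, from 87666208 to 87932665 of GRCm38 (266.5 kb), with Csn2 on the minus strand and the others on the plus strand. Promoters of Csn1s1, Csn2 and Csn1s2a are printed because these genes were low in 4T1 C269 relative to 4T1 CTRL. Each sequence runs from 250 bases before to 50 bases after the RefSeq start (GRCm38.p6), and capitals mark the STAT5 consensus TTCNNNGAA, which reads the same on both strands.
Csn1s1, chr5:87665958-87666257, plus strand: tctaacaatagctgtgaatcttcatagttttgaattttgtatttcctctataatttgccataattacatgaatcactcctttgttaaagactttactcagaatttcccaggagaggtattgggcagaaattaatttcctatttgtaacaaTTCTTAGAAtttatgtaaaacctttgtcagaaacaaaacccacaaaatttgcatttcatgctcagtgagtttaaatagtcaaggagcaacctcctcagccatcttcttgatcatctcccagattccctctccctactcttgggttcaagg
Csn2, chr5:87699376-87699675, minus strand: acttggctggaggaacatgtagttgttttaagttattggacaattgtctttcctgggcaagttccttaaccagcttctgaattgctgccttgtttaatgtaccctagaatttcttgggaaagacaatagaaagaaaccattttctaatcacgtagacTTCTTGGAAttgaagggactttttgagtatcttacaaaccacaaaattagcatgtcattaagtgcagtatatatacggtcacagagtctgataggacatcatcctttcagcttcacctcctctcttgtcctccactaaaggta
Csn1s2a, chr5:87774200-87774499, plus strand: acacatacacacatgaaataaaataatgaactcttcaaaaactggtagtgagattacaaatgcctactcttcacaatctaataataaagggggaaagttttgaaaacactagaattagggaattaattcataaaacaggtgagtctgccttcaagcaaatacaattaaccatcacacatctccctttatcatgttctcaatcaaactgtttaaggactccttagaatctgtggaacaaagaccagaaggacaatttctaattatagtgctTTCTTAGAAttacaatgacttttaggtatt
The consensus began 100 bases before the start in Csn1s1 and 93 bases before it in Csn2. In Csn1s2a it began 21 bases after the RefSeq start, and the whole window lies before the GENCODE start of that gene at 87774567. RefSeq promoters were found for 7 of the 10 members, and 4 of the 7 held the consensus, the fourth being Glycam1. Of all 32851 promoter windows of 300 bases, 8.3% held it. None was found in the windows of Wap, Lalba or Elf5. A match of letters is a description of the window and not a measured binding site. Csn1s2b, Csn3 and Btn1a1 were not matched.

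Libraries held 2005579 to 5176494 counts over genes. Levels are CPM, gene counts scaled to one common library total, so 3 counts in 1 library correspond to between 0.58 CPM in the deepest and 1.5 CPM in the shallowest of them. Libraries 9 and 10, both 4T1 C269, stood apart: they held 5603 and 6416 CPM of 6 intestinal goblet markers, against 19.1 to 155 CPM in the other 3 4T1 C269 libraries and 5.02 to 17.3 CPM in the 4T1 CTRL libraries. Casein results in 4T1 are therefore given with and without them. The libraries labelled 4T1 also held the leukocyte gene Ptprc, at 253 to 706 CPM in CTRL. In 4T1 C269 it stood at 721, 832, 857, 73.0 and 55.6 CPM, the last 2 being libraries 9 and 10. T cell libraries matched their labels, with Cd4 at 116 to 184 CPM in CD4 C269 and 71.3 to 192 CPM in CD4 CTRL libraries, and Cd8a at 335 to 685 CPM in CD8 C269 and 357 to 619 CPM in CD8 CTRL libraries. The other marker was present at lower levels. Cd8a stood at 16.2 to 50.6 CPM in CD4 C269 and 6.88 to 19.7 CPM in CD4 CTRL. Cd4 stood at 5.22 to 27.9 CPM in CD8 C269, highest in library 27, and 3.08 to 12.2 CPM in CD8 CTRL. The T cell libraries also held casein counts, and 9 epithelial markers summed to 322 to 904 CPM in CD4 C269, 226 to 345 CPM in CD4 CTRL, 49.2 to 617 CPM in CD8 C269 and 37.1 to 109 CPM in CD8 CTRL libraries. In such bulk samples fewer cells of a type and less RNA per cell cannot be told apart, and the part of other cells in the values below was not tested.

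The alpha-s1, beta and alpha-s2a caseins were low in the 4T1 libraries of C269-treated mice. Csn1s1, the alpha-s1 casein, stood at 4.51, 7.99, 17.4, 0 and 0 CPM in 4T1 C269 libraries, against 28.9, 126, 33.4, 33.1 and 97.0 CPM in 4T1 CTRL libraries. Csn2, the beta-casein, stood at 1.81, 7.38, 0.49, 0 and 0 CPM in 4T1 C269, against 17.1, 35.8, 14.6, 11.5 and 43.3 CPM in 4T1 CTRL. Csn1s2a, an alpha-s2 casein, stood at 1.13, 0.41, 0.98, 0 and 0 CPM in 4T1 C269, against 5.56, 10.7, 17.02, 11.04 and 16.6 CPM in 4T1 CTRL. For all 3 genes every C269 library lay below every CTRL library, and the zeros are libraries 9 and 10.

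Among the 8 members with 30 counts in the 4T1 libraries, these 3 were the ones whose groups did not overlap in that direction, and 1.74% of genes with 30 counts showed such a separation. Leaving out libraries 9 and 10 cannot undo a separation of this kind. Among the remaining 4T1 libraries, 2.85% of genes with 30 counts showed it. Mean Csn1s1 was 5.98 ± 7.21 CPM in 4T1 C269 and 63.6 ± 44.8 CPM in 4T1 CTRL (SD, n = 5 each). Without libraries 9 and 10 the C269 mean was 9.96 ± 6.66 CPM (SD, n = 3).

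Tests across all genes differed in their calls. With edgeR's quasi-likelihood test, 4 members passed the filter on low counts in 4T1, none was called at an adjusted p under 0.05, and neither was any of the 12875 genes tested (0%), although 1557 had an unadjusted p under 0.05. The fitted log2 fold changes, C269 over CTRL, were -3.39 (SE 1.09, adjusted p = 0.356) for Csn1s1, -3.52 (SE 1.10, adjusted p = 0.355) for Csn2 and -4.50 (SE 0.90, adjusted p = 0.355) for Csn1s2a. DESeq2 called the same 3 members lower in C269, with adjusted p of 0.0333 for Csn1s1, 0.0208 for Csn2 and 4.06e-07 for Csn1s2a, where 2.5% of 17687 genes were called lower. In the authors' deposited table the 3 genes had adjusted p of 0.039, 0.0249 and 1.76e-06, and 2.2% of 18193 genes were called lower in C269.

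Without libraries 9 and 10, the edgeR fold changes were -2.62 (SE 0.61) for Csn1s1, -2.76 (SE 0.82) for Csn2 and -3.75 (SE 0.70) for Csn1s2a on the log2 scale, with adjusted p of 0.748, 0.809 and 0.614. DESeq2 on the same 8 libraries called these 3 members, with adjusted p of 0.00532 for Csn1s1, 0.0342 for Csn2 and 0.000199 for Csn1s2a, beside 0.603% of genes called lower. A two-sided exact permutation test of mean log2(CPM + 1) gave p = 0.00794 for each of the 3 genes with all 10 libraries, the smallest that 5 libraries against 5 allow. The same exact test gave p = 0.0179 without libraries 9 and 10, the smallest that 3 libraries against 5 allow. For these 3 genes both exact p-values restate the separation of the groups described above. They add no support beyond it and are not adjusted for the number of genes.

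Kappa-casein was not called in 4T1 by edgeR, by DESeq2 or in the authors' deposited table. Csn3 stood at 25.1, 19.9, 95.7, 0.225 and 0 CPM in 4T1 C269, against 22.9, 21.3, 22.6, 26.6 and 98.3 CPM in 4T1 CTRL. The groups overlapped, and in each of them 1 library lay far above the others. The edgeR log2 fold change was -0.48 (SE 1.18, adjusted p = 0.907) and turned to 0.27 (SE 0.63, adjusted p = 0.964) without libraries 9 and 10.

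**Figure D1:**
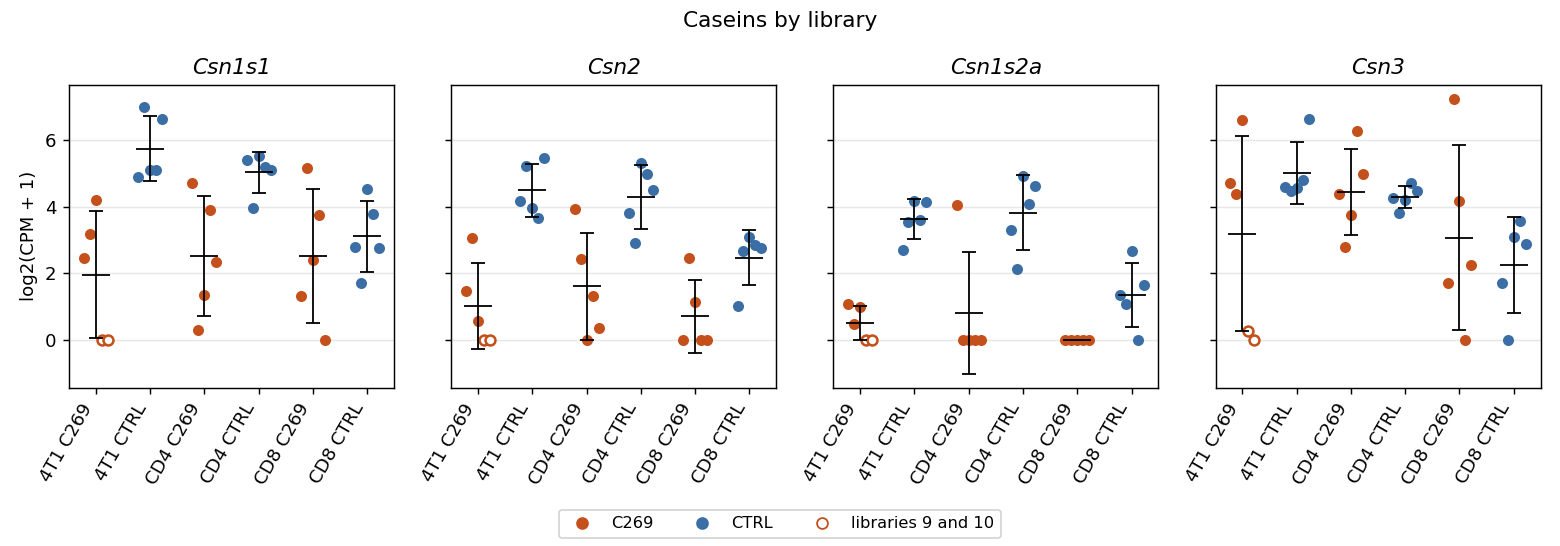
Each point is 1 library, as log2(CPM + 1), for 4 caseins in the 6 groups; the black mark and bar are the mean and SD of the 5 libraries, and open points are libraries 9 and 10. In 4T1 every C269 point lies below every CTRL point for Csn1s1, Csn2 and Csn1s2a, and the groups overlap for Csn3.

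In CD4 libraries the same 3 caseins had lower means under C269, with 1 library apart. Csn1s1 stood at 24.99, 0.229, 1.56, 13.96 and 4.08 CPM in CD4 C269, against 41.0, 14.7, 44.3, 35.8 and 33.1 CPM in CD4 CTRL. Csn2 stood at 14.4, 4.36, 0, 1.496 and 0.291 CPM in CD4 C269, against 12.99, 6.54, 38.2, 30.8 and 21.7 CPM in CD4 CTRL. Csn1s2a stood at 15.7 CPM in library 16 and at 0 in the other 4 CD4 C269 libraries, against 8.91, 3.38, 29.3, 15.8 and 23.7 CPM in CD4 CTRL. For each of the 3 genes 4 of the 5 C269 libraries lay below every CTRL library, and the exception was library 16. No member had groups that did not overlap, beside 0.33% of genes.

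The edgeR log2 fold changes in CD4 were -1.94 (SE 0.67, adjusted p = 0.767) for Csn1s1, -2.42 (SE 0.79, adjusted p = 0.743) for Csn2 and -2.37 (SE 1.09, adjusted p = 0.882) for Csn1s2a. None of the 6 members that passed the filter was called, nor was any of 12393 genes (0%), of which 697 had an unadjusted p under 0.05. DESeq2 called no member in CD4 either, and 17 genes in all (0.11%). With every gene of at least 1 count tested, edgeR called these 3 members lower, with adjusted p of 0.000157 for Csn1s1, 0.000117 for Csn2 and 0.00988 for Csn1s2a, beside 11 of 26131 genes (0.0421%) called lower. Csn3 averaged 28.8 ± 27.4 CPM in CD4 C269 and 18.99 ± 4.54 CPM in CD4 CTRL (SD, n = 5 each), with a log2 fold change of 0.55 (SE 0.46, adjusted p = 0.92).

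In CD8 libraries the caseins had fewer counts and did not share a direction. Csn2 stood at 0, 4.49, 1.22, 0 and 0 CPM in CD8 C269, against 1.02, 5.38, 7.49, 6.16 and 5.72 CPM in CD8 CTRL. Csn1s2a had no count in the 5 CD8 C269 libraries, against 6, 4, 18, 0 and 6 counts in CD8 CTRL, 34 in all. Over the summed counts it was at least 8.84-fold lower in C269, with 3 counts over the group as the floor. Library 23 held 18 of the 34 counts, and library 24 had none, as in C269. The gene did not pass the filter for the CD8 edgeR test. The groups also overlapped for Csn1s1, at 1.52, 34.4, 4.28, 12.3 and 0 CPM in CD8 C269 and 5.88, 2.26, 21.9, 12.7 and 5.72 CPM in CD8 CTRL.

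The CD8 edgeR fold changes on the log2 scale were -2.20 (SE 1.08, adjusted p = 0.742) for Csn2, 0.10 (SE 0.94, adjusted p = 0.987) for Csn1s1 and 2.65 (SE 1.18, adjusted p = 0.742) for Csn3. None of the 3 tested members was called, beside 1 of 10943 genes (0.00914%), and no member had C269 libraries all below CTRL, beside 0.787% of genes. The Csn3 difference came with library 27, at 149 CPM, while the other CD8 C269 libraries stood at 2.28, 17.1, 0 and 3.73 CPM and the CD8 CTRL libraries at 2.30, 0, 7.49, 10.8 and 6.44 CPM. Without library 27 the log2 fold change was 0.165.

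**Figure D2:**
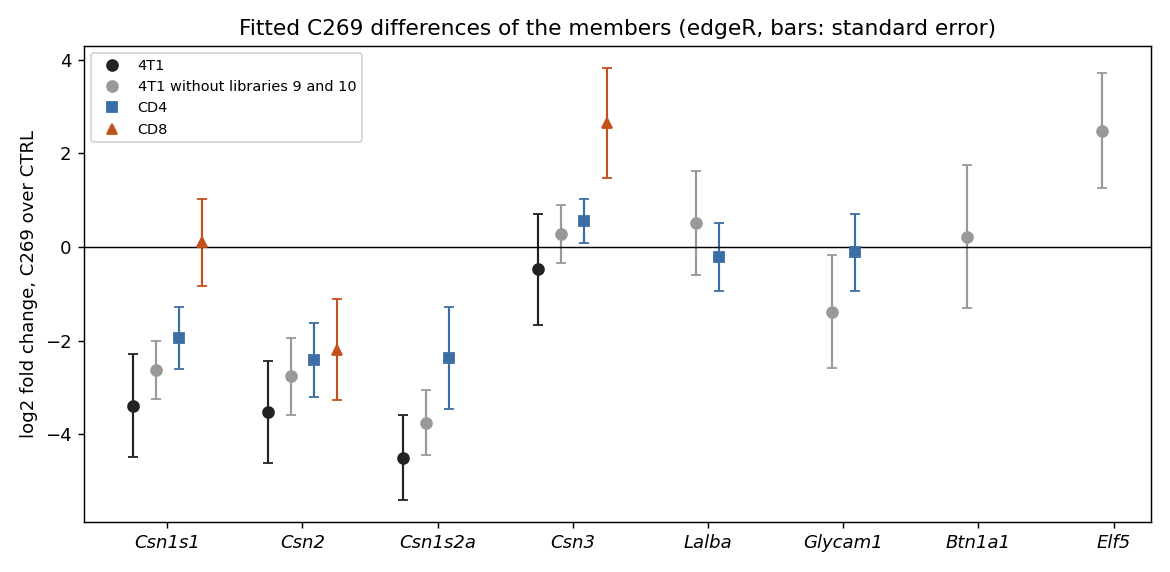
The vertical axis is the edgeR log2 fold change, C269 over CTRL, with its standard error, for members that passed the filter in at least 1 of the fits shown. Csn1s1, Csn2 and Csn1s2a lie between -4.50 and -1.94 in 4T1 and CD4, and Csn3 lies near 0 in 4T1 and at 2.65 in CD8.

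Differences between the populations in the C269 effect were tested as interactions over all 30 libraries. None of the 8 members tested was called for 4T1 minus CD4 (0.00679% of 14731 genes called), for 4T1 minus CD8 (0.00679%) or for CD8 minus CD4 (0%). The interaction of Csn1s1 was -3.40 on the log2 scale for 4T1 minus CD8 (SE 1.41, adjusted p = 0.228) and -1.42 for 4T1 minus CD4 (SE 1.36, adjusted p = 0.809). With libraries 9 and 10 left out these were -2.63 (SE 1.26, edgeR adjusted p = 0.413) and -0.66 (SE 1.2, adjusted p = 1). With standard errors of this size, the fits do not show whether the populations differed in the C269 effect.

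Csn3 took a larger share of the casein counts in most C269 libraries than in CTRL libraries. Shares were taken in libraries with at least 20 casein counts. Intervals are exact binomial at 95%, which treats reads as independent and covers counting error at most. The interval of the Csn3 share was 41.1% to 71.1% in library 17 (46 casein counts) and 0% to 13.7% in library 29 (25 casein counts). Csn3 made up 77.1%, 55.7% and 83.5% of casein counts in 4T1 C269 libraries 6, 7 and 8, against 30.7%, 11.01%, 25.8%, 32.3% and 38.5% in 4T1 CTRL. Csn3 made up 26.6% in CD4 C269 library 16 and 56.5%, 88.9%, 82.9% and 87.5% in the other CD4 C269 libraries, against 13.4% to 34.7% in CD4 CTRL. In CD8 it was 79.3% and 75.7% in libraries 27 and 28 and 0% in library 29, against 0% to 36.4% in CD8 CTRL. Over the 3 populations Csn3 exceeded 50% of casein counts in 9 of 11 C269 libraries with a share and in 0 of 15 CTRL libraries. The 2 exceptions in C269 were libraries 16 and 29. Library 16 also had the lowest epithelial marker sum of the CD4 C269 libraries, 322 CPM, within the CD4 CTRL range. Library 29 stood at 306 CPM of these markers, above the CD8 CTRL range of 37.1 to 109 CPM. Library 28, with a Csn3 share of 75.7%, had the lowest sum of CD8 C269, 49.25 CPM. The part of epithelial cells in the shares was not tested. Shares are described without a test because they combine the members, and the share of Csn3 also depends on the counts of the other caseins. Libraries 9, 10, 26 and 30, all C269, had under 20 casein counts and no share. The library columns could not be tied to mice, so the tally over populations is no count of independent replicates.

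**Figure D3:**
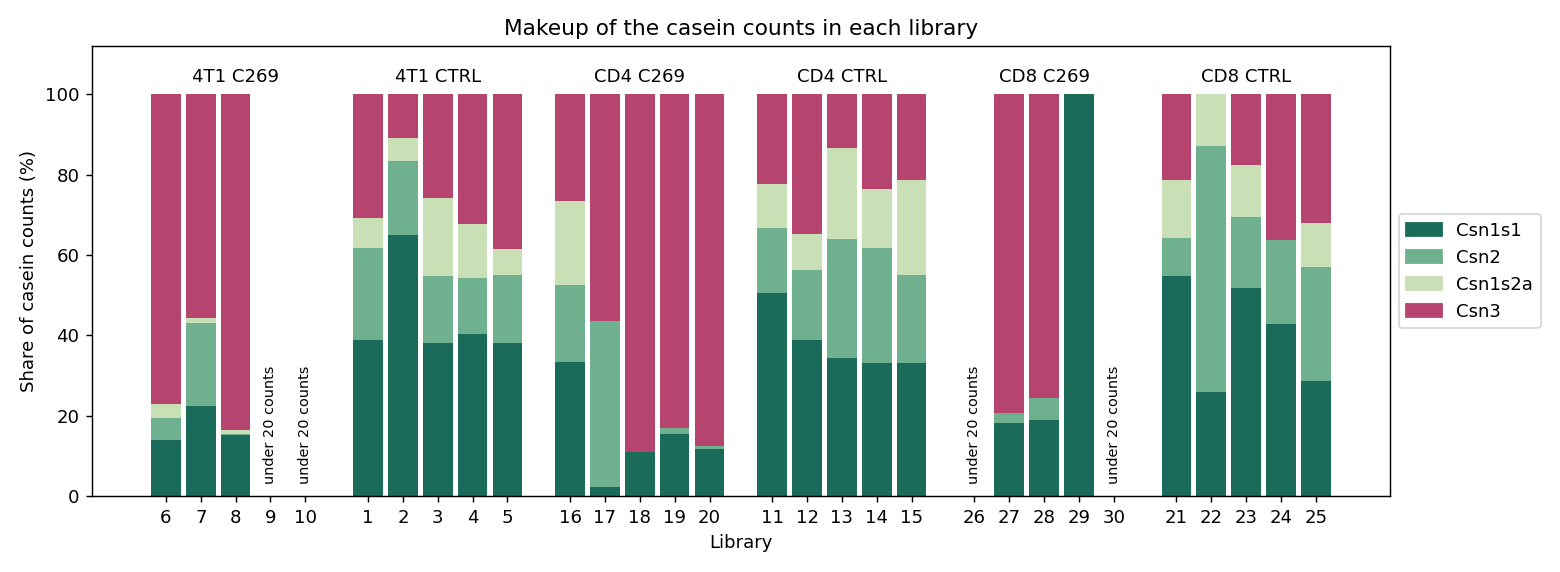
Stacked bars give the share of each casein in the casein counts of each library, in percent; libraries with under 20 casein counts are left blank. Csn3 takes 55.7% to 83.5% of the bars in 4T1 C269, against 11.01% to 38.5% in 4T1 CTRL.

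Levels per kilobase of the longest protein-coding transcript allow genes to be compared. In 4T1 C269 libraries the mean level was 17.7 CPM per kb for Csn3, 4.24 for Csn1s1, 1.46 for Csn2 and 0.547 for Csn1s2a. The 3 4T1 C269 libraries other than 9 and 10 gave 29.4 CPM per kb for Csn3, 7.06 for Csn1s1, 2.43 for Csn2 and 0.912 for Csn1s2a. In 4T1 CTRL libraries it was 45.1 CPM per kb for Csn1s1, 24.03 for Csn3, 18.4 for Csn2 and 13.2 for Csn1s2a, and 5.14 for Lalba, 5.05 for Glycam1, 0.59 for Btn1a1 and 0.47 for Elf5. Csn3 had the highest mean of the caseins per kb in 4T1 C269, and Csn1s1 in 4T1 CTRL.

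Control libraries of the 3 populations differed in the caseins. All 4 members tested were called higher in 4T1 CTRL than in CD8 CTRL by edgeR. Of 12025 genes, 35.1% were called in either direction and 2418 were called higher. The log2 fold changes were 2.73 (SE 0.59, adjusted p = 0.00352) for Csn1s1, 2.28 for Csn2, 2.58 for Csn1s2a and 2.91 for Csn3. The filter on low counts favoured members that were high in either group of a pair. With every gene of at least 1 count tested, edgeR called 5 of 9 members higher, beside 2687 of 26270 genes called higher (4379 in either direction). DESeq2 called 5 of the 7 members with an adjusted p higher, beside 3487 of 17349 genes called higher (5718 in either direction). In CD8 CTRL all 4 members that passed the filter lay below their CD4 CTRL levels. The log2 fold changes were -1.73 for Csn1s1, -2.02 for Csn2, -2.86 for Csn1s2a and -1.76 for Csn3 (edgeR adjusted p from 0.00557 to 0.0309). Of 12109 genes, 23.3% were called in either direction and 1604 were called lower. The call of Csn3 between CD8 CTRL and CD4 CTRL was lost without CD4 CTRL library 13 or 15 or CD8 CTRL library 21 (adjusted p = 0.0558, 0.056 and 0.0738). No member was called between 4T1 CTRL and CD4 CTRL, where 8.38% of genes were, and Csn1s1 had a log2 fold change of 0.99 (SE 0.45, adjusted p = 0.188). These comparisons share control libraries. The casein level of CD4 CTRL libraries, which hold T cells by label, was therefore not distinguished from that of 4T1 CTRL libraries.

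The order of the 6 groups was followed for each of 8 members. For Csn1s1 the means ran from 63.6 CPM in 4T1 CTRL through 33.8 in CD4 CTRL, 10.5 in CD8 C269, 9.69 in CD8 CTRL and 8.96 in CD4 C269 to 5.98 in 4T1 C269. For Csn3 they ran from 38.3 CPM in 4T1 CTRL through 34.4 in CD8 C269, 28.8 in CD4 C269, 28.2 in 4T1 C269 and 18.99 in CD4 CTRL to 5.40 in CD8 CTRL. The CD8 C269 mean of Csn3 rested on library 27, at 149 CPM, and the median was 3.73 CPM, against 6.44 CPM in CD8 CTRL. Groups were ordered by mean CPM but tested as log2(CPM + 1). On that scale Csn3 in CD8 C269 lay below CD4 C269 (difference -1.36). Of the 40 neighbouring pairs, the smallest two-sided exact permutation p was 0.00794, for Csn3 between CD4 CTRL and CD8 CTRL, which is the smallest that 5 libraries against 5 allow. After Benjamini-Hochberg adjustment it was 0.317, the value that a single pair at the smallest exact p receives among 40, so these tests do not show which neighbours differed.

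The whey and fat globule genes had few counts and did not separate the treatments. Lalba stood at 2.03, 1.44, 15.2, 0 and 0 CPM in 4T1 C269, against 7.48, 0, 4.70, 1.76 and 5.89 CPM in 4T1 CTRL. Lalba averaged 3.29 ± 2.23 CPM in CD4 C269 and 3.69 ± 2.07 CPM in CD4 CTRL (SD, n = 5 each), with a log2 fold change of -0.22 (SE 0.73, adjusted p = 0.982, edgeR). In CD8 it had 48 counts over the C269 libraries and 4 over the CTRL libraries, and 3 of 5 C269 libraries lay above every CTRL library. Wap had counts in 2 4T1 CTRL libraries and 1 CD4 C269 library, with 2 counts in each.

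Glycam1 averaged 1.19 ± 0.58 CPM in 4T1 C269 and 3.24 ± 2.31 CPM in 4T1 CTRL (SD, n = 5 each). In CD4 libraries Glycam1 averaged 3.75 ± 2.68 CPM under C269 and 3.96 ± 4.31 CPM under CTRL (SD, n = 5 each). Endothelial and high endothelial venule markers, 10 in all, summed to 120 to 150 CPM in 4T1 C269 and 81.8 to 179 CPM in 4T1 CTRL, with Fut7 and Madcam1 at 0 in 4T1 CTRL. Of the venule markers, Ccl21a reached 17.5 CPM (185 counts over the group) and Chst4 had 13 counts in 4T1 CTRL, and the part of such cells in Glycam1 was not tested. Btn1a1 averaged 2.23 ± 2.71 CPM in 4T1 C269 and 2.02 ± 2.69 CPM in 4T1 CTRL (SD, n = 5 each). Btn1a1 had its highest mean in CD4 C269, at 1.86, 0.917, 0.89, 10.5 and 5.83 CPM, against 0, 0, 1.41, 4.50 and 2.27 CPM in CD4 CTRL.

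Elf5 had a higher mean in 4T1 C269 than in 4T1 CTRL, through library 8. It stood at 2.48, 2.25, 17.1, 0 and 0 CPM in 4T1 C269, against 1.71, 0, 1.12, 0 and 3.12 CPM in 4T1 CTRL. Without libraries 9 and 10 its log2 fold change was 2.48 (SE 1.23, edgeR adjusted p = 0.884). In CD8 libraries it had 4 counts over C269 and none over CTRL.

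**Figure D4:**
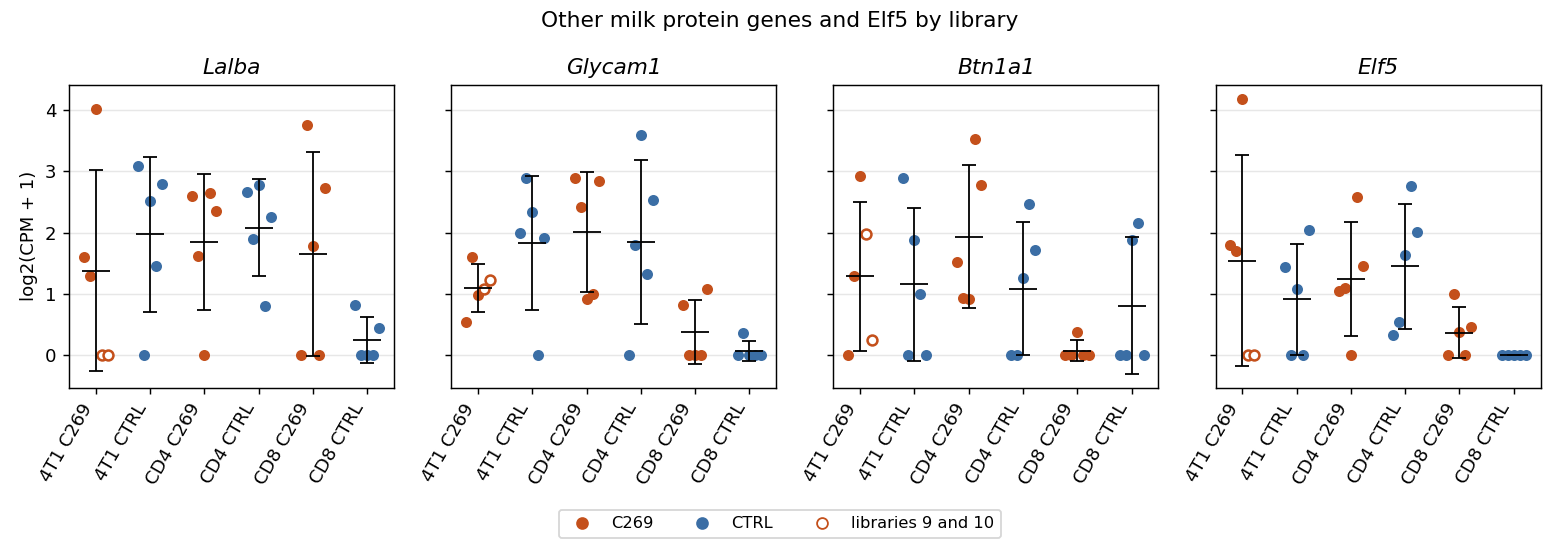
Each point is 1 library, as log2(CPM + 1), for Lalba, Glycam1, Btn1a1 and Elf5, drawn as for the caseins with the mean and SD of 5 libraries. Library 8 is the highest 4T1 C269 point for Lalba (15.2 CPM) and Elf5 (17.1 CPM).

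Across the 30 libraries the members did not all share 1 pattern. Pearson's r of log2(CPM + 1) was 0.864 between Csn2 and Csn1s2a, 0.797 between Csn1s1 and Csn2, and 0.723 between Csn3 and Lalba, while with Csn3 it was 0.647 for Csn1s1, 0.45 for Csn2 and 0.339 for Csn1s2a. The points share libraries, groups and depth, so these are descriptions. Among 13463 genes with a mean of at least 5 CPM in a group, the genes most like Csn2 were Csn1s2a, Csn1s1 and Rasgef1b (r = 0.684), and the most like Csn1s2a were Csn2, Csn1s1 and Nup85 (0.713). Csn1s1 was most like Csn2, Gm38021 (0.78) and Psap (0.77). Csn3 was most like Trf (0.849), which encodes the iron carrier transferrin, then Chst14 (0.832) and Tctex1d2 (0.827), and none of the other caseins was among its nearest 3. Lalba was most like Pdzd4 (0.726), Csn3 and Pwwp3b (0.713). Elf5 was most like Cxcl15 (0.787), Pwwp3b (0.731) and Upk3a (0.715). Glycam1 was most like Il11 (0.774), Msln (0.691) and Gm43794 (0.669), and Btn1a1 like BC004004 (0.665), Ripor1 (0.646) and Serinc3 (0.616).

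Each of 9 epithelial markers had a higher mean in C269 than in CTRL libraries in each population, although the ranges of their sum overlapped in each. In 4T1 the 9 markers summed to 636, 404, 1777, 6456 and 6174 CPM in C269 against 259, 612, 248, 267 and 320 CPM in CTRL. Without libraries 9 and 10, r with this sum was 0.652 for Csn3, 0.29 for Csn1s1 and 0.067 for Csn1s2a over 28 libraries. With all 30 it was 0.0844 for Csn3, -0.135 for Csn1s1 and -0.125 for Csn1s2a. Markers of macrophages, 5 in all, summed to 628, 331, 515, 144 and 105 CPM in 4T1 C269 and 456 to 2821 CPM in 4T1 CTRL. Neutrophil markers, 4 in all, summed to 12499, 8927, 2866, 361 and 367 CPM in 4T1 C269 and 3741 to 13465 CPM in 4T1 CTRL. In both lists the 2 lowest C269 sums were those of libraries 9 and 10. B and plasma cell markers, 5 in all, summed to 794 to 1985 CPM in 4T1 C269 and 31.1 to 664 CPM in 4T1 CTRL. The 7 markers of hormone-sensing luminal cells summed to 346, 235, 1272, 545 and 641 CPM in 4T1 C269 and 92.6 to 162 CPM in 4T1 CTRL. The groups did not overlap for these 2 lists. Of the 7, Cited1 and Pgr stood at 0 in libraries 9 and 10, against 6.50 to 10.4 CPM and 2.26 to 7.62 CPM in 4T1 CTRL. In the other 4T1 C269 libraries they stood at 35.9 to 215 CPM and 8.58 to 39.7 CPM. The part of these cells in the casein values was not tested.

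**Figure D5:**
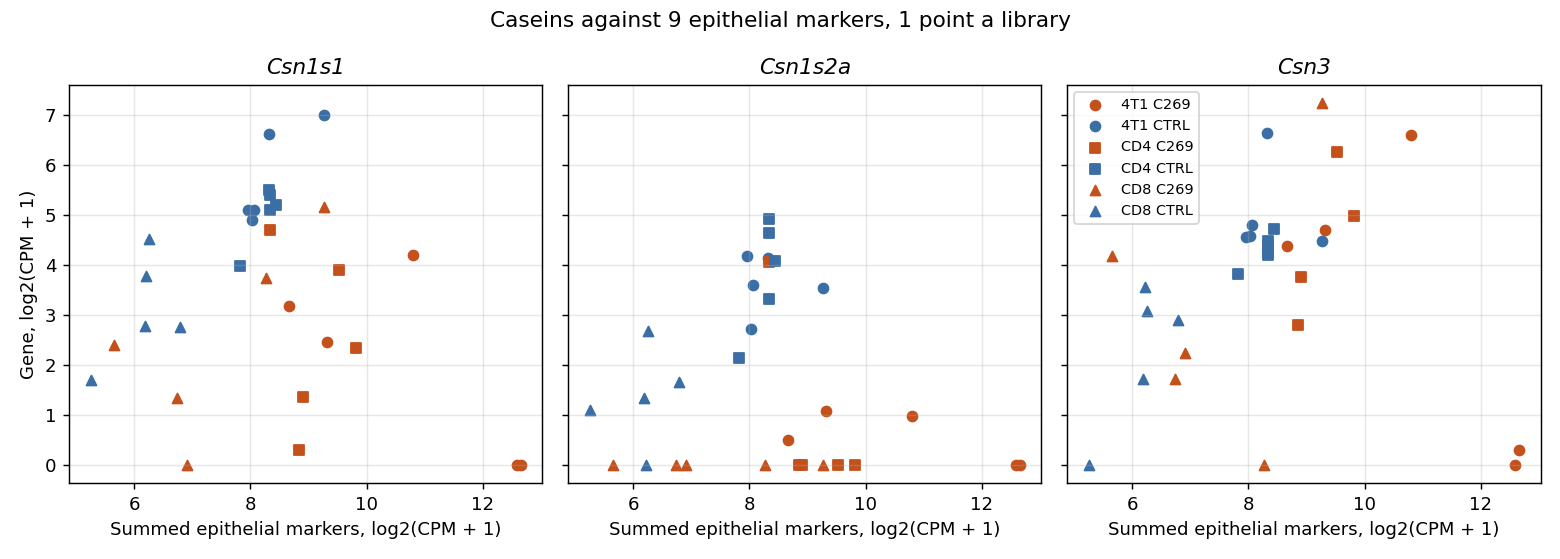
Each point is 1 library; the horizontal axis is the sum of 9 epithelial markers and the vertical axis the gene, both as log2(CPM + 1). Libraries 9 and 10 lie at the far right with caseins at or near 0, and among the other libraries Csn3 is higher where the sum is higher (r = 0.652) while Csn1s2a is not (r = 0.067).

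Of the genes upstream of the caseins, edgeR's fits per population called none, and the prolactin receptor gene was called by other fits. Prlr, the prolactin receptor, stood at 130, 85.5, 682, 42.0 and 43.3 CPM in 4T1 C269, against 4.49, 45.2, 9.86, 21.8 and 30.8 CPM in 4T1 CTRL. Its edgeR log2 fold change was 3.14 (SE 0.86, adjusted p = 0.355) in 4T1, 2.64 (SE 0.67, adjusted p = 0.67) in CD4 and 3.13 (SE 0.68, adjusted p = 0.574) in CD8, so its estimate was positive in each population without passing this test. With libraries 9 and 10 left out it was 3.77 in 4T1 (SE 0.73, edgeR adjusted p = 0.614). DESeq2 called Prlr higher in 4T1 C269 with all libraries (adjusted p = 0.00522, beside 5.64% of genes called in either direction) and without libraries 9 and 10 (adjusted p = 0.000196, beside 0.807%), and in CD8 C269 (adjusted p = 0.00205, beside 0.128%). In CD4 DESeq2 gave an adjusted p of 0.265. In 1 edgeR fit of all 30 libraries Prlr was called in 4T1 (adjusted p = 0.0286, beside 4.11% of genes). Pearson's r of Prlr with the summed epithelial markers, as log2(CPM + 1), was 0.637 over 30 libraries and 0.789 over 28 without libraries 9 and 10. Prlr is 1 of the 7 hormone-sensing luminal markers, and the other 6 summed to 150 to 598 CPM in 4T1 C269 and 85.8 to 124 CPM in 4T1 CTRL. In CD4 these 6 summed to 187 to 372 CPM under C269 and 89.5 to 166 CPM under CTRL, and in CD8 to 14.1 to 180 CPM under C269 and 19.6 to 35.3 CPM under CTRL. The part of these cells in the Prlr values was not tested. In 4T1 the log2 fold changes were -0.51 (SE 0.34) for the kinase gene Jak2, -0.44 (SE 0.56) for Stat5a, 0.33 (SE 0.42) for Stat5b and 0.43 (SE 0.74) for Cish, a STAT5 target and feedback inhibitor, with adjusted p from 0.57 to 0.85. With libraries 9 and 10 left out they were -0.09 (SE 0.22) for Jak2, 0.15 (SE 0.34) for Stat5a, 0.68 (SE 0.42) for Stat5b and 1.08 (SE 0.53) for Cish, so the sign of Stat5a turned. Of 20 genes of prolactin and JAK2-STAT5 signalling, 18 were tested in 4T1, 6 were higher and 12 lower in C269, edgeR called none, and the median log2 fold change was -0.22 beside 0.04 over all genes. Without libraries 9 and 10, 10 were higher and 8 lower (median 0.14). Igf1r had a log2 fold change of -0.58 with and -0.35 without libraries 9 and 10, and Ptpn11 of -0.48 with and -0.49 without them.

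The other lists gave no calls with edgeR's fits per population. DESeq2 with all 10 4T1 libraries called Cd36 lower (adjusted p = 0.0498) and Slc12a2, Pigr, Ehf and Tspan8 higher in C269. In that fit 5.64% of all genes were called in either direction. On the 8 4T1 libraries other than 9 and 10, DESeq2 called Slc12a2, Aqp5 and Cxcl15 higher and Saa1 lower, beside 0.807% of genes. In CD4 DESeq2 called Slc12a2 and Aqp5 (beside 0.11% of genes), and in CD8 none of these lists' genes (beside 0.128%). The edgeR fit of all 30 libraries called Slc12a2 and Ehf in 4T1, beside 4.11% of genes. Of 15 tested genes of milk fat synthesis and secretion, 8 were higher and 7 lower in 4T1 C269 (median 0.16), with log2 fold changes of -1.49 (SE 0.48) for the fatty acid transporter Cd36, -1.09 (SE 0.44) for the lipid droplet protein gene Plin2 and 1.01 (SE 0.46) for the citrate carrier Slc25a1. Slc25a1 stood at 69.4 and 83.5 CPM in libraries 9 and 10, and at 21.2, 19.9 and 22.8 CPM in the other 4T1 C269 libraries. With both left out the log2 fold changes were -1.06 (SE 0.43) for Cd36, -0.68 (SE 0.41) for Plin2 and 0.06 (SE 0.34) for Slc25a1, and 7 of the list were higher and 8 lower (median -0.05). Of 15 tested genes of other milk proteins and of lactating secretory cells, 4 were higher and 11 lower (median -0.43). There the ion cotransporter gene Slc12a2 had a log2 fold change of 2.55 (SE 0.50), or 2.08 (SE 0.50) without libraries 9 and 10, and Saa1, an acute-phase gene, one of 2.94 that was -1.70 without libraries 9 and 10. Saa3, of the same family, was at -1.71 (SE 0.86) with and -1.195 (SE 0.94) without them. Of 16 genes of this list tested without libraries 9 and 10, 8 were higher and 8 lower. In CD8, 12 of 13 tested genes of the list were higher in C269 (median 0.94, beside 0.01 over all genes), and edgeR called none. Of 8 tested luminal progenitor and alveolar markers, 5 were higher and 3 lower (median 0.35), and Ehf, an epithelial transcription factor gene, was at 4.12 with and -0.46 without libraries 9 and 10. Aldh1a3, a retinaldehyde dehydrogenase gene, was at 2.26 with and 0.65 without them, and the receptor gene Kit at 1.22 with and 1.04 without them.

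Within 300 kb of the casein block, 4 of 36 other genes had 30 counts. Sult1b1 and Sult1d1, sulfotransferase genes, stood at 301 and 266 CPM and at 268 and 240 CPM in libraries 9 and 10 and at 0 in the other 4T1 C269 libraries, against at most 8.52 and 3.83 CPM in 4T1 CTRL. Gm42845 and Gm7337 had means under 3 CPM in every group. The gene 1700066N21Rik, which overlaps Csn3, had no count in any library.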

How the data were processed

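Whole-gene expression was measured by RNA sequencing in 30 libraries. Read counts per gene were deposited by the authors in tables of library columns headed 1 to 30; FastQC, featureCounts, DESeq2 and the build mm9 are named by the submitters' processing notes without versions, yet gene coordinates matched GRCm38 (99.5% of those found). Library columns were tied to groups because 5 of them sum exactly to each deposited condition column; 0 library columns were left unused. The authors' deposited log2 fold changes, CTRL over C269, and adjusted p-values are quoted only where named. CPM were computed over gene counts without 7 ribosomal RNA rows (3.05% of counts).

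edgeR 4.0.16 quasi-likelihood fits (filterByExpr, TMM, Benjamini-Hochberg) in R 4.3.3 were run per pair of groups, with interactions over all libraries. Some of the fits per pair, and none of the interactions, were tried on simulated data with a fixed spread. That trial does not measure power for the members at their own spread. DESeq2 1.42.0 was an alternative, as were other size factors, no filter, ribosomal rows kept, 1 fit of all libraries, each library left out and libraries 9 and 10 left out; DESeq2 without libraries 9 and 10 was chosen after seeing the data. Exact permutation tests used log2(CPM + 1). The members and gene lists were chosen with earlier results of these data known. Named genes are the members, the 3 genes of each list with the smallest p in 4T1, 5 genes of prolactin signalling, casein neighbours and the 3 genes most like each member. The exact binomial intervals treat each read as an independent draw. Counts of PCR reads are not independent molecules, so the intervals can be too narrow even for counting error.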

Additional observations from a re-analysis of the deposited data

Results flagged for a closer look

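In 10 of 46 groups of 5 libraries with counts, 1 library lay far from the other 4 by Dixon's gap test at its 95% level. Chance flags about 1 group in 20 of continuous values, a rate that does not hold for low counts: in 3 of the 10 groups the other 4 libraries were all at 0. In 4T1 C269 the far library was library 8 for Csn3 (95.7 CPM), Lalba (15.2 CPM) and Elf5 (17.1 CPM), and library 7 for Csn2 (7.38 CPM). Library 5 was far in 4T1 CTRL for Csn3 (98.3 CPM), and library 16 in CD4 C269 for Csn1s2a (15.7 CPM). In CD8 C269 library 27 was far for Csn2 (4.49 CPM) and Csn3 (149 CPM), and library 28 for Btn1a1 (0.306 CPM). Library 22 was far in CD8 CTRL for Glycam1 (0.283 CPM). Library 8 had the highest epithelial marker sum of 4T1 C269 apart from libraries 9 and 10, at 1777 CPM, and library 27 the highest of CD8 C269, at 617 CPM; the part of this in the values was not tested.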

How the results depend on the processing

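Counts of members called moved with the tool and the filter. DESeq2 called 3 members in 4T1, with or without libraries 9 and 10, where edgeR called 0. Without a filter beyond 1 count, edgeR called 3 members in CD4 (Csn1s1, Csn2 and Csn1s2a, lower in C269) and 1 in CD8 (Csn3, higher), where it called 0 with the filter, beside 0.0421% of genes lower in CD4 and 0.67% called in CD8. It also called 7 members between CD8 CTRL and CD4 CTRL (beside 12.2% of genes called in either direction), as DESeq2 did (20.3%), against 4 with the filter (23.3%). The cause was not tested. The count of genes called in 4T1 was 0 with edgeR, 998 with DESeq2, 119 with DESeq2 without libraries 9 and 10, and 606 in 1 edgeR fit of all 30 libraries; no filter gave 83 genes in CD4 and 162 in CD8. The log2 fold change of Csn3 in 4T1 was 0.274 without libraries 9 and 10 (0.238 with DESeq2). As a difference of mean log2(CPM + 1) with an exact permutation test, Glycam1 in CD4 was 0.162 and Csn1s1 in CD8 was -0.582, opposite in sign to edgeR. Leaving out 1 library at a time, values that changed sign ranged from -1.608 to 0.25 for Csn3 in 4T1, -0.137 to 0.814 for Csn3 in CD4, -0.491 to 0.103 for Lalba in CD4, -0.433 to 0.757 for Glycam1 in CD4 and -1.074 to 0.645 for Csn1s1 in CD8; between 4T1 CTRL and CD4 CTRL they ranged from -0.108 to 0.558 for Csn2, -0.566 to 0.023 for Csn1s2a, -0.146 to 0.563 for Lalba and -0.565 to 0.625 for Glycam1. Csn3 between CD8 CTRL and CD4 CTRL lost its call without library 13, 15 or 21 (adjusted p 0.0558 to 0.0738, edgeR). No paired analysis was possible because the replicate letters of the titles could not be tied to the library columns. Members at a few counts a library are limited by depth.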
